A study of Mus musculus with 21 samples.

Results

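The probes described here were high in cardiomyocytes selected with puromycin, while their level in unselected embryoid bodies lay close to that of undifferentiated stem cells. They were chosen by their signal intensity after quantile normalization and log2, without background correction. A probe was taken when it was detected (p under 0.01) on all 6 cardiomyocyte arrays, when the cardiomyocyte mean of each line lay at least 2 log2 units above the undifferentiated cells of that line and above fibroblasts, and when the embryoid body mean lay within 0.5 of the undifferentiated mean in both lines. Of 45281 probes, 370 met the cardiomyocyte conditions and 162 (43.8% of the 370) also met the embryoid body condition. These 162 probes are called members below, and the 208 that failed only the embryoid body condition are called the other cardiomyocyte-enriched probes. Of the members, 142 carried 1 gene symbol in the platform annotation and 20 carried none, so that 117 genes were named, 22 of them by more than 1 member probe.

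The Illumina bead arrays held 7 groups with 3 arrays each. The ES line was aPIG D3 and the iPS line aPIG TiB7.4, 1 line of each kind, and both carry the aPIG transgene, in which the Myh6 (alpha myosin heavy chain) promoter drives puromycin resistance together with GFP. Undifferentiated cells (ES passages 7, 9 and 10, iPS passages 5, 7 and 8) were grown on mitomycin C-treated feeder cells with LIF, so feeder RNA may be present in them. Embryoid bodies (EB), cell aggregates in which many cell types form side by side, came from spinner flasks and were collected untreated on day 16. Cardiomyocytes (CM) were the same cultures given puromycin at 8 µg/ml from day 9 and collected on day 16, so selection, exposure to the drug and the makeup of cell types cannot be told apart in any comparison of CM with EB. The control was tail tip fibroblasts of F1 129Sv x c57BL6 mice 8 weeks old. The series' design text calls the stem cell groups independent biological replicates and the fibroblast arrays technical replicates of 1 RNA, although the labels give passages 2, 3 and 4. The fibroblast arrays were therefore averaged to 1 sample in every test.

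Heart muscle cells contract through sarcomeres, in which myosin motors pull on actin filaments and titin, Z-disc and M-band proteins keep the lattice in register. Each beat is set off by ion channels in the surface membrane and by calcium released from the sarcoplasmic reticulum, and its energy comes mostly from fatty acid oxidation in mitochondria. In bulk RNA, fewer cells of a type and less RNA per cell cannot be told apart.

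Between 13231 and 17866 probes were detected per array, and the number of arrays limits the precision. Markers of the selected cell type matched the labels: of 25 contractile genes on the array, 24 were detected on all 3 CM arrays of each line and 5 on all 3 fibroblast arrays. Before selection, 21 of the 25 were detected on all 3 ES EB arrays and 18 on all 3 iPS EB arrays. Of 12 markers of undifferentiated cells, 4 were detected on all ES CM arrays and 2 on all iPS CM arrays, against 12 and 11 in EB, and their summed intensity was 450 to 485 in ES CM, 471 to 533 in iPS CM, 28588 to 45697 in ES EB and 12621 to 27325 in iPS EB. Of 11 fibroblast markers, 1 and 0 were detected on all CM arrays of the ES and iPS line, and their summed intensity was 401 to 431 in CM, 3456 to 3965 in ES EB, 1416 to 2412 in iPS EB and 16536 to 17343 in fibroblasts. The summed intensity of 4 smooth muscle markers was 13696 to 13800 (ES CM), 15431 to 21308 (iPS CM), 1255 to 2575 (ES EB), 1795 to 7627 (iPS EB) and 15042 to 18088 (fibroblasts), and 4 of their 5 probes tested were higher in CM than in EB of each line (limma, adjusted p under 0.05). The part of these cell types in the differences between CM and EB was not tested. None of the lists for skeletal muscle, undifferentiated cells, fibroblasts, endothelium, smooth muscle, endoderm, neural cells or p53 targets held a member. The rule set CM above undifferentiated cells and fibroblasts, so genes high in either could not be members. The absence of such markers is therefore not a result about the members.

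The working name of these probes, seen only after selection, held for some members but not for others. Outside the CM, on the 15 arrays of EB, undifferentiated cells and fibroblasts, 36 members (31 genes) were detected on no array, 96 (76 genes) on some and 30 (21 genes) on all 15. On the 6 EB arrays alone, 41 members were detected on none, 69 on 1 to 5 and 52 on all 6, so the name used here is the one the rule gives: CM-enriched probes whose EB level lay near that of undifferentiated cells. Genes with a probe detected in CM only included the motor and lattice genes Myh6, Ttn, Ldb3, Synpo2l, Unc45b (a myosin chaperone), Lmod3 (a thin filament nucleator) and Abra, the ion and calcium genes Casq2, Kcne1, Kcna1 and Fxyd1, and the fuel genes Cpt1b, Pygm and Nmrk2. They also included Tnni3k, Lrrc39, Klhl41, Pgm5, Hhatl, Perm1, Fitm1, Fsd2, Tmem182, Rgs6, Pvalb, Spink4, Eef1a2, Plppr5, Gsg1l, Lrrc10 and a probe annotated to Mhrt, a noncoding RNA of the myosin heavy chain locus. Genes with a probe detected on every array included Ndufa5 (a subunit of respiratory complex I), Idh3a (citric acid cycle), Coq9 (coenzyme Q synthesis), Acaa2 (fatty acid oxidation), Mdh1 (malate dehydrogenase), Pfkm (muscle phosphofructokinase), Mff (mitochondrial fission) and Atp1b1 (sodium pump), and also Nme7, Fam78a, Homer2, Dhrs7, Inpp5a and Cish. For several of these genes, such as Ldb3, Cpt1b and Ttn, other probes were detected outside CM. The names outside the naming rule were chosen after their values were seen.

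**Figure D1:**
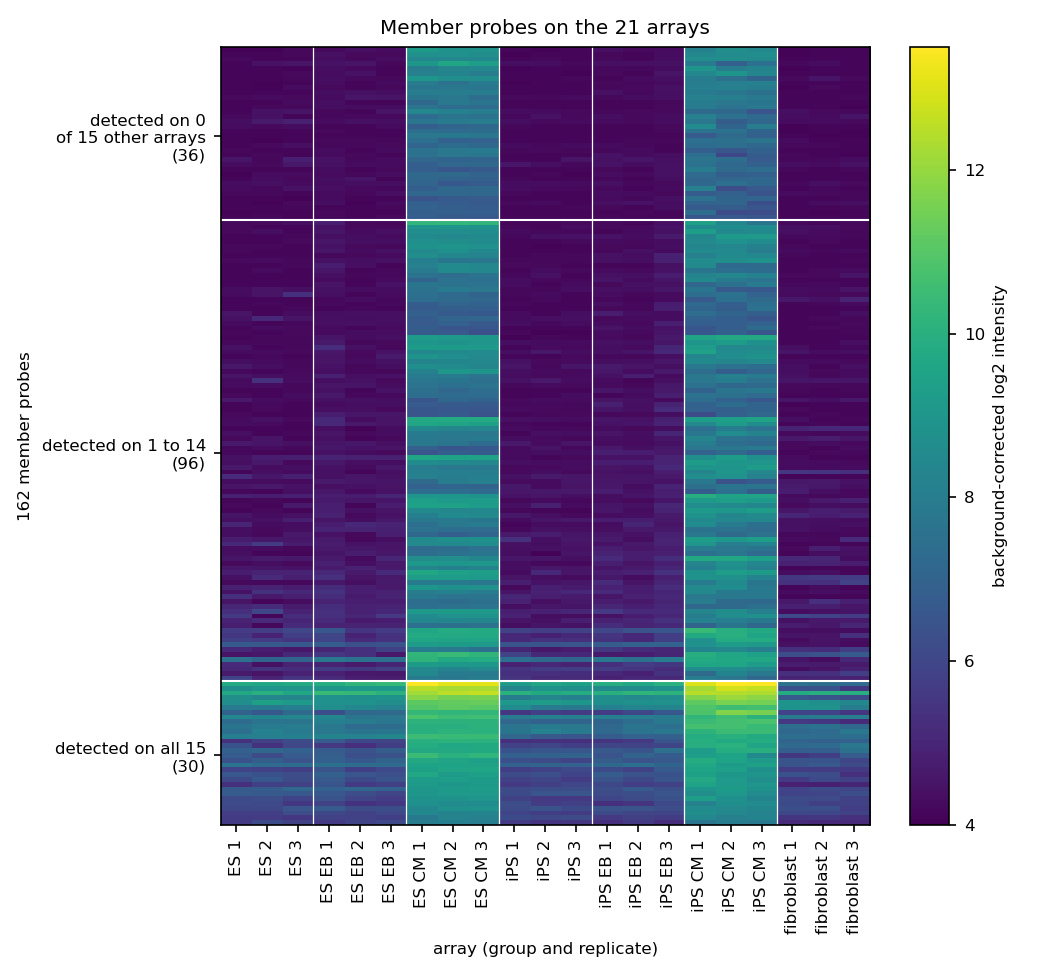
Each line of the heat map is 1 of the 162 member probes and each column 1 of the 21 arrays, coloured by background-corrected log2 intensity and split by how many of the 15 other arrays detected the probe. The 6 CM columns stand out in all 3 blocks, while the 30 probes at the bottom were measured on every array.

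Promoter sequences were read for members because these genes were chosen for moving together. RefSeq windows of 300 bases (250 before and 50 after the annotated start, build GRCm38.p6) were found for 87 of the 117 genes, 117 windows in all. An element that matches the binding consensus of MEF2, a family of muscle transcription factors, was present on either strand in 14 of the 117 windows (12.0%) and in 3.19% of all 32851 windows of the genome table. By gene it was present in 13 of 87 (14.9%) and in 3.70% of all 27025 genes, a description with no test. The 13 genes were Alpk3, Casq2, Esrrg, Fgf13, Klhl41, Lrrc14b, Lrrc39, Lsmem1, Ndrg2, Pvalb, Synpo2l, Tnni3k and Ttn, and 4 of the 14 matches overlapped TATAAA, which these letters can contain. A CArG box, the element bound by serum response factor, was in 3.42% of member windows and 1.63% of all. Other letters were searched on both strands: AGATAA was found in 10.3% against 11.2%, TNAAGTG in 9.40% against 11.5%, CATTCC in 20.5% against 14.7%, AAGGTCA in 5.98% against 4.72% and TATAAA in 15.4% against 13.6%. A match is a run of letters, not a shown binding site, and a window without one says nothing about the factor.

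The stretches below show where the element lies in 6 members, read 5′ to 3′ on the strand of the gene with the MEF2 match in capitals.
Casq2, chr3:102086306-102086395, + strand: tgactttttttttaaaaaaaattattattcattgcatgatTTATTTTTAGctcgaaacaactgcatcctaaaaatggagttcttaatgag
Ttn, chr2:76982664-76982753, - strand: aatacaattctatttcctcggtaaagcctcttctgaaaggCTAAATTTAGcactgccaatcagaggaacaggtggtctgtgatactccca
Alpk3, chr7:81057525-81057599, + strand: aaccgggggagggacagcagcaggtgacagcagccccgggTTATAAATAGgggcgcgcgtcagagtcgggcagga
Klhl41, chr2:69670017-69670106, + strand: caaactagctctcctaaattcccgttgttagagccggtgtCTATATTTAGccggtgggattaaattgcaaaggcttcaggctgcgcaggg
Lrrc39, chr3:116562924-116562982, + strand: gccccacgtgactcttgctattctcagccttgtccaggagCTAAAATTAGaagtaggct
Esrrg, chr1:187608944-187609005, + strand: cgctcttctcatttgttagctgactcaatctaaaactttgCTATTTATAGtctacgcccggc
Counted from the start of transcription, the element began at -69 in Casq2, -166 in Ttn, -35 in Alpk3, -63 in Klhl41, -19 in Lrrc39 and -22 in Esrrg. Of the 14 matches, 9 began within 70 bases before the start. The next pair, of a Z-disc and an M-band gene, has the CArG match in capitals.
Ldb3, chr14:34588682-34588756, - strand: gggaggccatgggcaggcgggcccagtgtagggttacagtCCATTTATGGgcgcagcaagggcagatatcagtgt
Myom1, chr17:71019418-71019507, + strand: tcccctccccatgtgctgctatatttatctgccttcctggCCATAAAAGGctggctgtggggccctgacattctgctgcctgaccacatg
It began at -35 in Ldb3 and at -99 in Myom1.

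On the scale of the rule, CM lay above undifferentiated cells by 2.00 to 5.53 (median 2.97) for ES and by 2.04 to 5.44 (median 3.04) for iPS, values that chose the members and are given as a description. The EB level was within the limit of 0.5 but not centred on 0: EB lay above undifferentiated cells for 121 of 162 members (ES) and 138 (iPS), by a median of 0.13 and 0.18. The rule used these EB values too, and no share over all probes stands beside them. They are a description and not a result about the members. Nearest the limit on the inside were Efcab2 (0.49), Klhl3 (0.48) and Mlip (0.48), and nearest outside were Mdh1 (0.51, a second probe of that gene), an unnamed probe (0.51) and Usp2 (0.52). These are distances: Usp2 in EB lay below undifferentiated cells (-0.52 for ES), and the others lay above. No gap separated the members from the probes just outside the limit. On linear background-corrected intensity, the rise from undifferentiated cells to EB came to a median of 0.58% (ES) and 1.04% (iPS) of the rise to CM. For the other cardiomyocyte-enriched probes these medians were 3.92% and 6.07%. The rule divided the members from these probes by the EB distance alone, so the lower medians of the members follow from the choice. The median rise from undifferentiated cells to CM was also lower in the members than in these other probes, where it was 3.91 (ES) and 4.08 (iPS).

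**Figure D2:**
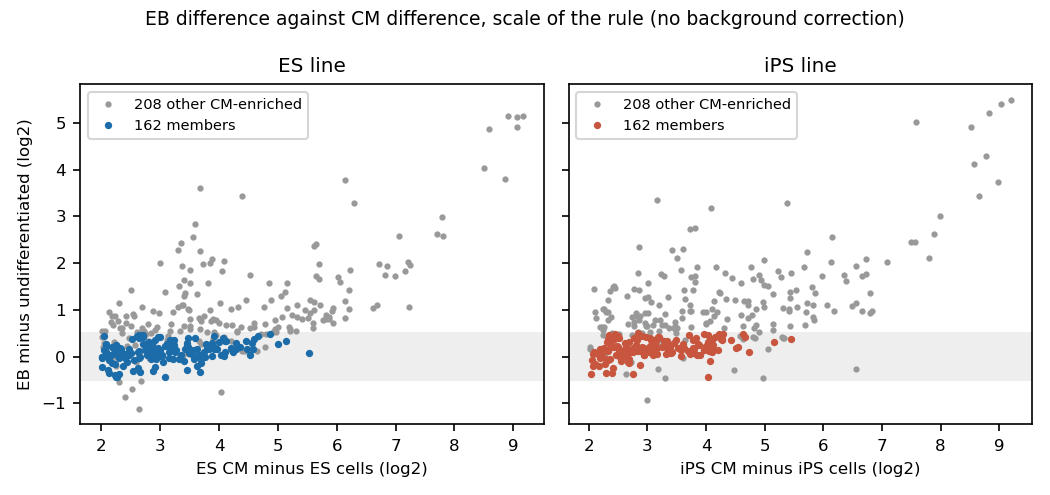
Each point is a probe, with CM minus undifferentiated cells across and EB minus undifferentiated cells up, both in log2 intensity without background correction, for the ES line (left) and the iPS line (right). The shaded band is the EB limit of 0.5 used to choose the 162 members, and the 208 other probes reach CM differences of 9.16 (ES) and 9.20 (iPS).

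All values from here on are background-corrected log2 intensities, to which an offset of 16 was added before the log, so that the change of a dim probe is understated on this scale. Where no array of a group detected a probe, a fold is given as at least N, with the CM mean set against the higher of each array's lowest detected signal and the probe's own value. Probes differ in response, so an order of members by CM signal is no order of RNA levels.

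Myh6 encodes the alpha myosin heavy chain, and its promoter drives the selection cassette. Its member probe read 9.17, 8.84 and 8.86 in ES CM and 8.18, 8.68 and 8.48 in iPS CM. In EB it read 4.22, 4.39 and 4.28 (ES) and 4.38, 4.23 and 4.26 (iPS), and it was detected on none of the 15 arrays outside CM. The CM arrays lay far above all others without overlap, at least 21.7-fold above EB for ES and at least 15.2-fold for iPS. A second Myh6 probe met the CM conditions but not the EB limit, and told more of EB: it read 8.59, 7.69 and 7.96 in ES EB and 7.12, 7.01 and 8.56 in iPS EB, was detected on all 6, and lay 2.58 and 2.61 above undifferentiated cells on the scale of the rule. That probe was also detected on all 3 undifferentiated ES arrays and on 1 iPS array, averaging 5.24 in ES and 4.57 in iPS cells. The rise to EB was 2.33% (ES) and 2.46% (iPS) of the rise to CM for the second probe, and 0.46% and 0.60% for the member probe. Myh6 signal was thus detected in EB by 1 probe and not by the other.

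Other genes also had probes on both sides of the EB limit. Of the 117 genes, 67 had other probes on the array, 139 in all, of which 68 were not detected on all 6 CM arrays, 50 were detected but did not meet the CM conditions, and 21 (19 genes) met the CM conditions and lay outside the EB limit. The 19 genes were Myh6, Mlf1, Mb, Eef1a2, Stard10, Unc45b, Ttn, Myom1, Nme7, Fgf13, Capzb, Rasl11b, Ndrg2, Cdh13, Plppr5, Acaa2, Prkaa2, Mdh1 and Cacnb2. Unlike Myh6, the Ndrg2 probe fell in EB, by -1.12 (ES) and -0.45 (iPS) on the scale of the rule. For 17 of the 21 probes the rise from undifferentiated cells to CM was larger than that of every member probe of the gene in both lines. For Mb, the oxygen store myoglobin, the EB rise was 0.53% (ES) and 0.27% (iPS) of the CM rise at the member probe, and 1.89% and 0.95% at the other. For Cacnb2 it was 4.85% and 1.60% at the member probe and 8.94% and 6.76% at the other. Ttn, the giant spring of the sarcomere, did not follow this order: its member probes gave 2.89% and 0.25% in the ES line, and its other probes 1.22% and 2.18%. Whether such probes read different transcripts of the gene was not tested, since the files hold no probe sequences.

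**Figure D3:**
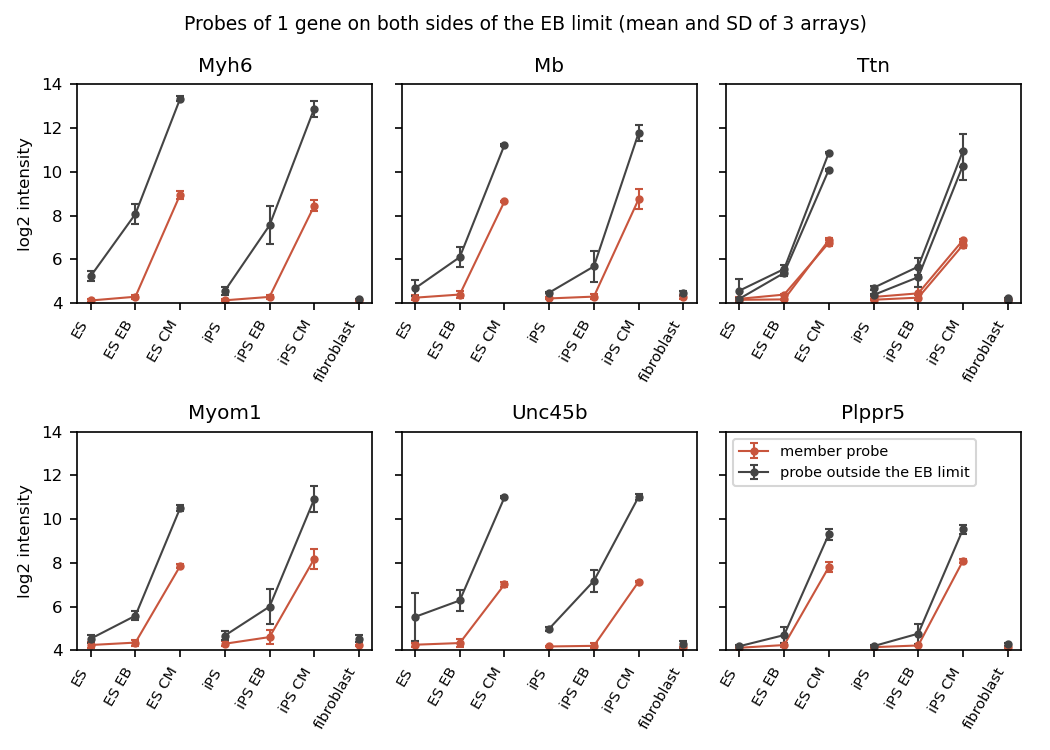
Background-corrected log2 intensity (mean and SD of 3 arrays) of member probes (red) and of probes of the same gene outside the EB limit (black), by group, for 6 genes. Lines of both colours rise most between EB and CM, and the black lines also rise from undifferentiated cells to EB. The second Myh6 probe averages 8.08 in ES EB and 7.56 in iPS EB, and the member probe 4.30 and 4.29.

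Among sarcomere genes, 21 of 25 on the array had a CM-enriched probe and 6 had a member probe (10 probes): Myh6, Ttn, Ldb3, Pdlim5, Myom1 and Synpo2l. Ldb3, a Z-disc adaptor, was represented by 4 member probes, 1 of which (9.66, 9.44 and 9.30 in ES CM, 8.84, 9.31 and 9.19 in iPS CM) was detected on all 6 EB arrays at 4.68 to 5.35. The other 3 were detected on no EB array, and gave CM at least 6.68- to 14.8-fold above EB for ES and at least 7.03- to 17.3-fold for iPS. All 4 Ldb3 probes read 5.35 or less on every array outside CM. Myom1, an M-band protein, read 7.97, 7.85 and 7.76 in ES CM and 7.71, 8.62 and 8.23 in iPS CM, against 4.24 to 4.98 in EB. Pdlim5, another Z-disc protein, read 8.68, 8.67 and 8.37 in ES CM and 9.77, 9.68 and 9.38 in iPS CM, and the lines did not overlap. It was higher in iPS CM by 1.04 (SE 0.17, limma adjusted p = 0.000389). Synpo2l read 7.11, 6.57 and 6.78 in ES CM and 7.19, 7.50 and 7.20 in iPS CM, and was detected nowhere else. Its line difference of 0.47 (limma adjusted p = 0.0123) lost its call with median scaling (adjusted p = 0.086) and without ES CM 2 (adjusted p = 0.082) or iPS CM 2 (adjusted p = 0.065).

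Of 24 genes for ion handling, 13 had a CM-enriched probe and 5 a member probe (7 probes). Casq2, the calcium buffer of the sarcoplasmic reticulum, read 6.42, 6.68 and 6.71 in ES CM and 7.59, 7.07 and 7.08 in iPS CM. It read 4.11 to 4.41 on all 15 other arrays and was detected on none of them. The iPS CM arrays lay above the ES CM arrays without overlap, by 0.64 (SE 0.13, limma adjusted p = 0.00166). Cacnb2, the beta subunit of the L-type calcium channel that opens in each beat, read 6.90, 6.53 and 6.60 in ES CM and 7.75, 7.81 and 7.91 in iPS CM. This was the largest rise of the members in iPS over ES CM, 1.15 (SE 0.12, limma adjusted p = 3.73e-06), and the lines overlapped in EB, with 4.61, 4.47 and 4.50 (ES EB) and 4.66, 4.38 and 4.60 (iPS EB). Kcnh2, the channel of the rapid delayed rectifier current, was lower in iPS CM at 1 probe by -0.74 (limma adjusted p = 0.0211), a call lost with median scaling (adjusted p = 0.069) and without any 1 of ES CM 2, ES CM 3, iPS CM 1 or iPS CM 3. Its second member probe gave -0.55 (adjusted p = 0.0582) and was not called. Jph2, which ties the surface membrane to the reticulum, averaged 7.28 ± 0.16 in ES CM and 7.14 ± 0.42 in iPS CM (SD, n = 3), and was detected in no EB and on 1 fibroblast array. Fxyd1, a regulator of the sodium pump, averaged 7.06 ± 0.18 and 7.24 ± 0.33 (SD, n = 3) at the first of 2 probes, with no line difference called.

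Of 16 cardiac transcription factors, 8 had a CM-enriched probe and 2 a member probe. Nkx2-5, a homeodomain factor of early heart cells, read 8.64, 8.53 and 8.41 in ES CM and 9.22, 9.03 and 8.95 in iPS CM. In EB it read 4.60, 4.38 and 4.36 (ES) and 4.72, 4.71 and 4.95 (iPS), so that the lines did not overlap at either stage. The difference of iPS over ES was 0.54 in CM (limma adjusted p = 0.00408) and 0.35 in EB (limma adjusted p = 0.0474). Hand2, a basic helix-loop-helix factor of the developing heart, read 6.72, 6.68 and 6.65 in ES CM and 6.93, 7.36 and 7.01 in iPS CM, and in EB 4.29, 4.35 and 4.35 (ES) and 4.85, 4.40 and 4.89 (iPS). The difference was 0.42 in CM (limma adjusted p = 0.0267) and 0.38 in EB (limma adjusted p = 0.0377). Both EB differences lay near background. Hand2 was detected on no ES EB array and on 2 iPS EB arrays, and Nkx2-5 on 1 ES EB array and all 3 iPS EB arrays. The Hand2 call in CM was lost with median scaling (adjusted p = 0.098) and without any 1 of ES CM 1, ES CM 2, ES CM 3 or iPS CM 2 (adjusted p 0.052 to 0.139). The EB call of Nkx2-5 was lost without any 1 EB array but ES EB 1 (adjusted p 0.052 to 0.187), and that of Hand2 without any 1 but iPS EB 2 (adjusted p 0.081 to 0.165) and with the replicate number as a block (adjusted p = 0.052). Nppa, the precursor of atrial natriuretic peptide and the 1 member gene among 5 secreted cardiac factors, went the other way. It read 8.18, 9.02 and 8.93 in ES CM and 7.38, 6.81 and 7.14 in iPS CM, lower in iPS CM by -1.60 (SE 0.18, limma adjusted p = 9.05e-06).

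Of 19 genes for muscle metabolism, 9 had a CM-enriched probe and 4 a member probe (6 probes): Mb, Cpt1b, Acadl and Pygm. Cpt1b carries fatty acids into muscle mitochondria, and its first probe read 9.16, 9.07 and 9.06 in ES CM and 9.57, 9.60 and 9.21 in iPS CM. In EB it read 4.94, 4.69 and 4.99 (ES) and 5.28, 5.64 and 5.52 (iPS), and the lines did not overlap. It was higher in iPS EB by 0.61 (SE 0.17, limma adjusted p = 0.012), a call lost with median scaling (adjusted p = 0.052) and without ES EB 2 (adjusted p = 0.066), and its second probe, detected in no EB, differed by 0.14 (adjusted p = 0.665). Pygm, muscle glycogen phosphorylase, read 7.32 to 7.43 in ES CM and 7.04 to 7.63 in iPS CM and was detected nowhere else, at least 7.20-fold above EB for ES and at least 7.41-fold for iPS. Acadl, an enzyme of fatty acid oxidation, was detected on all 6 EB and all 3 fibroblast arrays at both of its probes, and CM lay 5.31-fold (ES) and 8.09-fold (iPS) above EB at the first. Mb read 8.65, 8.65 and 8.66 in ES CM, 9.28, 8.45 and 8.53 in iPS CM, and 1 of the 6 EB arrays detected it.

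The 20 members with the highest CM signal, by the naming rule, were probes of Nme7 (2 probes), Atp1b1, Ndufa5, Mgst3, Fam78a, Pfkm, Homer2, Idh3a, Coq9, Ptges3l, Bik, Dhrs7, Rasl11b, Mlf1, Inpp5a and Cish, and 3 unnamed probes. Ndufa5 read 12.19, 12.54 and 12.66 in ES CM and 12.48, 12.42 and 12.35 in iPS CM, and 9.94 to 10.41 in EB, 4.53-fold (ES) and 4.99-fold (iPS) below CM. Another Ndufa5 probe lay only 1.44 above fibroblasts in ES CM on the scale of the rule, and so was no member. That probe was higher in iPS CM by 0.99 (limma adjusted p = 0.000656) and in iPS EB by 0.54 (limma adjusted p = 0.0327). Idh3a read 9.98, 10.01 and 10.12 in ES CM and 10.70, 10.66 and 10.45 in iPS CM, higher in the iPS line by 0.57 (SE 0.15, limma adjusted p = 0.0115, or 0.243 with median scaling), while EB of both lines shared the range 7.16 to 7.81. Another Idh3a probe, detected on all CM arrays, did not meet the CM conditions. At that probe CM stood 1.98-fold (ES) and 7.94-fold (iPS) above undifferentiated cells, and iPS CM was higher than ES CM by 1.86 (limma adjusted p = 2.52e-05). The first Pfkm probe lay 6.62-fold (ES) and 4.79-fold (iPS) above EB. Bik, a pro-apoptotic protein of the BCL2 family, averaged 9.75 ± 0.12 in ES CM and 10.05 ± 0.34 in iPS CM (SD, n = 3), against 5.91 ± 0.59 and 6.33 ± 0.26 in EB, with no line difference called. Cish, an inhibitor of cytokine signalling, averaged 10.26 ± 0.21 in ES CM and 9.11 ± 0.49 in iPS CM (SD, n = 3), lower in the iPS line by -1.15 (limma adjusted p = 0.00144). The first Nme7 probe averaged 13.21 ± 0.20 in ES CM and 13.38 ± 0.34 in iPS CM (SD, n = 3). The probes of Nme7 disagreed: at 3 others, detected on all 21 arrays, CM stood at 0.26, 0.27 and 0.44 of the undifferentiated level for ES and at 0.44, 0.32 and 0.43 for iPS. Nme7 and Atp1b1 overlap on chromosome 1 in the RefSeq annotation, and their probes correlated at up to r = 0.993 across the 21 arrays, so signal from 1 gene and its neighbour cannot be told apart here. The same holds for Herc1 and Fbxl22 on chromosome 9 (r = 0.998), the second of which encodes a cardiac F-box protein, and at another Herc1 probe the fold of CM over undifferentiated cells was 1.07 (ES) and 0.91 (iPS).

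The rule asked for CM enrichment in both lines but not for equal levels, so the lines could be compared in CM. Of 162 members, 30 were higher and 25 lower in iPS CM than in ES CM (limma, adjusted p under 0.05), or 18.5% and 15.4%, against 11.4% higher and 11.8% lower among all 21047 probes tested (23.2% in either direction). All members were tested because CM detection was part of the rule, and detection is not assured for the probes behind the background share. Without ES CM 3 the 30 became 19, and with median scaling 16. Of the members, 67 (41.4%) did not overlap between the lines, against 41.9% of all probes tested, and 4 were called higher and 6 lower by at least 2-fold, against 2.52% and 1.98% of all probes tested. The median difference was 0.02 in the members and -0.00 over all probes tested. Of the 208 other cardiomyocyte-enriched probes, 26 were higher and 22 lower. With 1 line of each kind, these differences belong to the 2 lines and not to ES or iPS cells in general.

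The highest in iPS CM were Cacnb2, Lpar3, Fam78a, Pdlim5 and Klhl41. Lpar3, a receptor for lysophosphatidic acid, read 7.98, 7.82 and 7.84 in ES CM and 8.92, 8.91 and 9.22 in iPS CM at its first probe, without overlap, a difference of 1.14 (SE 0.16, limma adjusted p = 6.53e-05), and its second member probe gave 0.88 (limma adjusted p = 0.000169). Klhl41, a kelch protein of striated muscle, read 6.82, 6.56 and 6.64 in ES CM and 8.02, 7.28 and 7.39 in iPS CM, a difference of 0.89 (SE 0.15, limma adjusted p = 0.000417), and was detected nowhere else. The lowest were Spink4, Avp, Nppa, Kcna1 and Eef1a2. Spink4, a peptidase inhibitor known from the gut, read 9.02, 9.63 and 9.34 in ES CM and 7.88, 6.93 and 7.48 in iPS CM, lower by -1.90 (SE 0.19, limma adjusted p = 2.58e-06). No other array detected it, and CM lay at least 28.0-fold above EB for ES and at least 7.49-fold for iPS. Avp encodes the precursor of vasopressin, known as a hormone of hypothalamic neurons. It read 10.27, 10.29 and 10.23 in ES CM, and 9.40, 8.35 and 7.65 in iPS CM, lower by -1.80 (SE 0.28, limma adjusted p = 0.000182). The 3 ES CM arrays were nearly equal and the iPS CM arrays far apart, and of the 15 other arrays only ES EB 1 (4.75) detected the probe. Kcna1, a voltage-gated potassium channel, read 8.98, 8.65 and 8.67 in ES CM and 8.02, 7.50 and 7.07 in iPS CM, lower by -1.24 (limma adjusted p = 6.02e-05). Eef1a2, the translation elongation factor of muscle and neurons, read 8.39, 8.19 and 8.01 in ES CM and 7.29, 7.19 and 6.51 in iPS CM, lower by -1.20 (limma adjusted p = 7.86e-05).

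The member probe of Myh6 was also lower in iPS CM, by -0.51 (limma adjusted p = 0.00633), a call lost with median scaling (adjusted p = 0.165), and its second probe differed by -0.45 (adjusted p = 0.369). Among potassium channel members named after their values were seen, Kcng2 was higher in iPS CM by 0.55 (limma adjusted p = 0.0028, or 0.051 with median scaling) and Kcne1 by 0.82 (limma adjusted p = 0.0188), while Kcna1 and 1 of 2 Kcnh2 probes were lower. The Kcne1 call was lost without any 1 of ES CM 1, iPS CM 1 or iPS CM 3 (adjusted p 0.071 to 0.098). Lmod3 was lower by -0.99 (limma adjusted p = 8.85e-06) and Cav3, the muscle caveolin, by -0.81 (limma adjusted p = 0.00082). Lrrc10, a cardiac leucine-rich repeat protein, and Alpk3, a kinase of heart muscle, differed by 0.04 (adjusted p = 0.932) and 0.07 (adjusted p = 0.849). Of the 22 genes with several member probes, the probes of 18 shared the sign of the line difference, and those of Dtna, Ldb3, Tnni3k and Ttn did not.

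**Figure D4:**
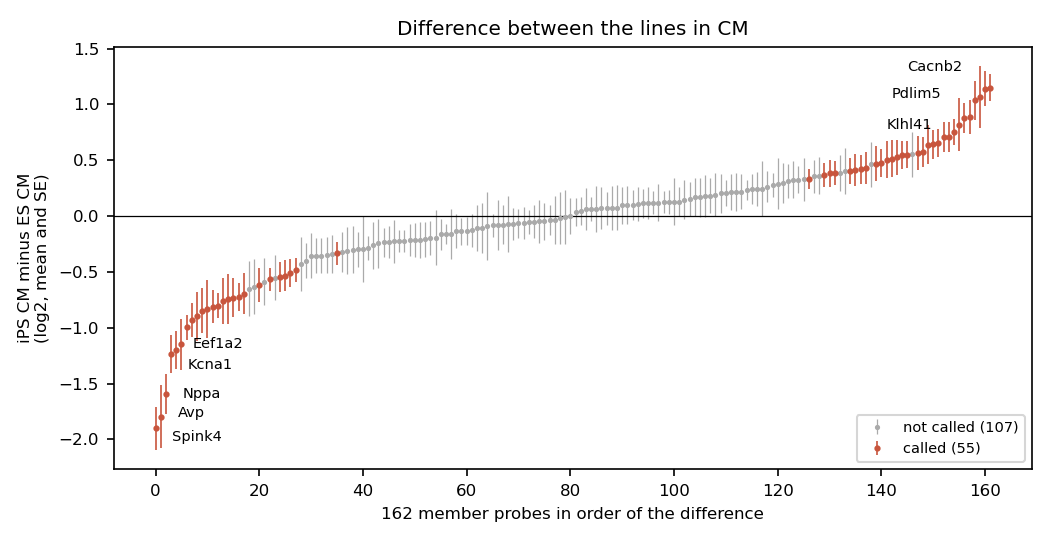
The 162 member probes in order of iPS CM minus ES CM (log2, mean and SE of the limma fit), red where called at an adjusted p under 0.05. Called members lie at both ends, from Spink4 at -1.90 to Cacnb2 at 1.15, and the median is 0.02.

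The lines were also compared before selection. In iPS EB, 5 members were higher and 6 lower than in ES EB (limma, adjusted p under 0.05), 3.09% and 3.70%, against 12.8% and 12.9% of all probes tested. Without ES EB 2 the counts were 0 and 2, without ES EB 3 they were 2 and 3, without iPS EB 1 they were 2 and 2, and without iPS EB 3 the 5 became 2. In undifferentiated cells 1 member was higher and 8 lower, against 9.47% and 10.1% of all probes tested, and without iPS 1 the 8 became 3, without iPS 2 or iPS 3 it became 4, while the 1 became 2 without ES 2 or iPS 1. Members had passed the filter on low values through CM, 41 of them were detected on no EB array and 94 on no undifferentiated array, and the rule bound EB to the undifferentiated level in both lines, so these low shares are not a result about the members. The largest called line difference in EB and in undifferentiated cells was that of Coq9. It read 8.08, 8.10 and 8.11 in ES cells, 7.14, 6.67 and 6.51 in iPS cells, 8.24, 8.22 and 8.37 in ES EB, and 6.77, 6.99 and 6.90 in iPS EB, lower in the iPS line by -1.32 in undifferentiated cells (limma adjusted p = 3.01e-06) and by -1.39 in EB (limma adjusted p = 1.18e-06). In CM it read 10.52, 10.42 and 10.42 (ES) and 9.90, 10.01 and 9.82 (iPS), a difference of -0.55 (limma adjusted p = 0.00604, or 0.164 with median scaling), so the lines did not overlap at any stage. Mcrip2 was the 1 member called higher in iPS cells, by 0.49 (limma adjusted p = 0.00722, or 0.166 with median scaling). Acer2, a ceramidase, was higher in iPS EB by 0.41 (limma adjusted p = 0.0263), a call lost without any 1 of ES EB 2, ES EB 3, iPS EB 2 or iPS EB 3 (adjusted p 0.07 to 0.142). The first Kyat1 probe was lower by -0.63 in both EB (limma adjusted p = 0.00287) and undifferentiated cells (limma adjusted p = 0.00403), both lost with median scaling (adjusted p = 0.342 and 0.471).

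The change from undifferentiated cells to CM differed between the lines for 33 members (20.4%), 17 with the larger change in the iPS line and 16 in the ES line, against 8.12% and 8.47% of all probes tested (16.6% in either direction), or 6 and 8 with median scaling. This share lay near that of all probes tested and is not a result about the members. For the 94 members detected on no undifferentiated array, the term rests largely on the line difference in CM. Fam78a, whose function is little known, had the largest difference of the change between the lines, 2.35 (SE 0.39, limma adjusted p = 0.000734, or 0.054 with median scaling). It read 7.03, 6.62 and 7.28 in ES cells and 5.48, 5.87 and 5.71 in iPS cells, but 10.32, 10.27 and 10.28 in ES CM and 10.83, 11.70 and 11.54 in iPS CM, so the order of the lines turned over, without overlap on either side. Its CM difference of 1.07 (limma adjusted p = 0.00965) lost its call with median scaling (adjusted p = 0.146), as did the undifferentiated one of -1.29 (limma adjusted p = 0.00334). In the other direction stood Spink4 with -1.84 (limma adjusted p = 0.000298). Fibroblasts, against the mean of the undifferentiated groups, had 11 members higher and 18 lower, 6.79% and 11.1% against 27.8% and 29.5% of all probes tested. Members had passed the filter through CM, and 103 were detected on no fibroblast array and 94 on no undifferentiated array, so these shares are not a result about the members. Fibroblasts entered as 1 sample, whose spread was taken from the other groups and assumed to be like theirs. Median scaling, which moved the median of all probes tested to 0.42 in this comparison, turned that split to 25 higher and 6 lower. The largest were -2.68 for Atp1b1 (limma adjusted p = 1.11e-08) and -2.60 for Rasl11b (limma adjusted p = 2.61e-08), and 1.58 for Dhrs7 (limma adjusted p = 6.86e-05).

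Since both lines chose the members, the same rule was applied in 1 line and read in the other. With ES cells, ES EB, ES CM and fibroblasts alone, 268 probes met it, and of these 264 (98.5%) were higher in iPS CM than in iPS EB (limma, adjusted p under 0.05), against 28.5% of all probes tested. In iPS EB, 218 of the 268 (81.3%) lay within 0.5 of undifferentiated iPS cells, against 87.1% of all probes, 45 lay above the limit and 5 below. In the test, 68 (25.4%) were higher in iPS EB than in iPS cells and 8 (2.99%) lower, against 18.8% and 18.7% of all probes tested, a split of 73 and 0 with median scaling. In reverse, 252 probes met the rule in the iPS line, 244 of them (96.8%) were higher in ES CM than in ES EB, against 31.3%, and 212 (84.1%) kept within 0.5 in ES EB, against 88.1% of all probes. In ES EB 40 (15.9%) were higher and 12 (4.76%) lower than in ES cells, against 16.6% and 16.7%, a split of 39 and 0 with median scaling, and without ES 3 the 40 became 23. By the limit of the rule, iPS CM lay at least 2 above iPS cells for 219 of the 268 (81.7%, against 2.16% of all probes). In the ES line this held for 197 of the 252 (78.2%, against 2.33%). The CM enrichment thus carried over for most probes to the line that had not been used. Called EB departures there lay mostly upward, but the upward share was above that of all probes tested only for the choice in the ES line. Fibroblast arrays were common to both choices.

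Among the 6 EB arrays the members moved with the other cardiomyocyte-enriched probes. The median of the members was 4.59, 4.39 and 4.46 in ES EB and 4.49, 4.41 and 4.76 in iPS EB. The median of the other 208 probes was 6.48, 5.92 and 6.13 in ES EB and 6.27, 6.00 and 6.74 in iPS EB. The order of the arrays was the same in both (r = 0.982 and rho = 1 over 6 arrays, r = 0.984 without the 2 arrays farthest from the median), also within each line. This is a description with no test, over arrays that share one normalization, and r was 0.986 without background correction and 0.940 with median scaling, both computed after the data were seen. Against the number of probes detected on the array, r was 0.417 and rho was 0.657. Of the 208 probes, 21 were other probes of 19 member genes, so the sets are not independent. The second Myh6 probe, which is among these, followed the order within each line, highest in ES EB 1 and iPS EB 3. The medians of the members lay near the lowest detected signal of the EB arrays, which was 4.46 to 4.59. Members detected numbered 97, 60 and 71 on the ES EB arrays and 81, 61 and 101 on the iPS EB arrays, against 58, 43 and 42 on the ES and 47, 49 and 46 on the iPS arrays. All 6 EB arrays detected more members than any undifferentiated array, ES EB 2 and iPS EB 2 by the smallest margin. Over all probes, EB arrays detected 16227 to 17866 and undifferentiated arrays 13231 to 16607, and ES 1, with the most of the latter, also had the most members detected among undifferentiated arrays. The part of this in the members' counts was not tested.

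**Figure D5:**
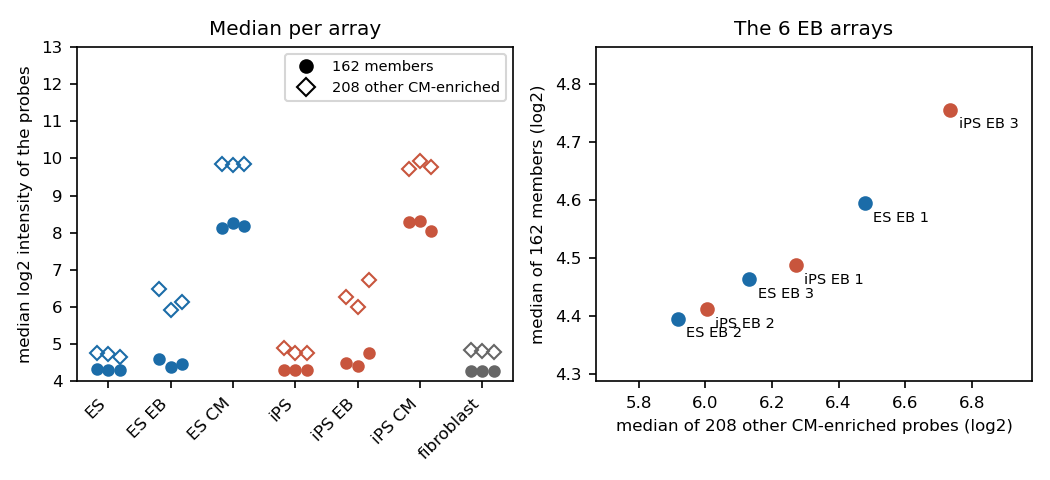
Left, the median background-corrected log2 intensity of the 162 members (filled) and of the 208 other cardiomyocyte-enriched probes (open) on each array, by group. Right, the 2 medians of the 6 EB arrays against each other, from ES EB 2 (4.39 and 5.92) to iPS EB 3 (4.76 and 6.74).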

How the data were processed

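Total RNA was measured on Illumina bead arrays as biotinylated cRNA. Per the file headers, the deposited non-normalized table pairs each probe's average signal intensity with a detection p-value on every array. The authors also deposited normalized intensity. How either was computed is not given in the sources. By value all 45281 rows of the tables matched, but 3 carried the same identifier. Identifiers of the non-normalized table were used, since 36 of 60 contractile probes rose at least 2 log2 units from ES cells to ES CM under them and 2 of 60 under the others. Genes come from GEO's platform annotation, which can be old (34885 probes with 1 symbol, 18 with several, 10378 with none). The function neqc of limma 3.58.1 (R 4.3.3) applied normexp background correction with an offset of 16, quantile normalization and log2. Probes detected (p under 0.01) on at least 3 arrays were tested (21047) with lmFit and eBayes on 19 samples, and calls were made at a Benjamini-Hochberg adjusted p under 0.05. The linear model was tested on simulated log2 values for iPS CM against ES CM. Background correction, normalization and the choice of members were not part of that simulation. Named genes were the 20 members highest in CM, the 5 highest and 5 lowest called line differences without overlap, the 3 probes nearest the EB limit on each side and members of gene lists; others were named after their values were seen. The members and lists were chosen with earlier results of these data known. Replicate numbers mark passages shared by the stages of a line and EB and CM of 1 batch, and deviations of same-numbered arrays correlated between -0.177 and 0.217 (5 of 18 pairs over 0.1).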

Additional observations from a re-analysis of the deposited data

Results flagged for a closer look

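The change from undifferentiated cells to CM differed between the ES and iPS lines for 33 of 162 members (limma interaction, adjusted p under 0.05). These were 17 upward and 16 downward, 20.4% of the members against 16.6% of all probes tested. The shares lie near each other, so the count is not a result about the members. With median scaling fewer were called, as given above, and 94 members were detected on no undifferentiated array. The values of Fam78a and Spink4, the largest in each direction, are given above.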

How the results depend on the processing

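With median scaling in place of quantiles, members higher in iPS CM numbered 16, and the counts in each direction became 1 and 1 in EB, 0 and 1 in undifferentiated cells, 6 and 8 for the change to CM, and 25 and 6 for fibroblasts. Under it 0 probes chosen in the ES line were lower in iPS EB and 0 chosen in the iPS line lower in ES EB. Members higher in iPS EB numbered 2 without background correction, with an offset of 50, from the authors' normalized table, or with only the compared groups fitted, and 3 with no filter or with trend and robust settings. Members higher in iPS cells numbered 2 with only the compared groups fitted, and members lower there 4 with an offset of 50, 4 with no filter and 5 with only the compared groups. With the fibroblast arrays as 3 samples, 18 members were higher and 31 lower. With only the compared groups, 21 probes chosen in the iPS line were higher in ES EB. The rule itself chose 75 probes with an EB limit of 0.25, 250 with a limit of 1 and 56 with CM limits of 3. It chose 126 on median-scaled values, 108 of them members. Leaving out 1 array at a time, the rule chose 149 to 168 probes. Members higher and lower ranged over 19 to 27 and 21 to 28 in CM, 0 to 5 and 2 to 6 in EB, 1 to 2 and 3 to 7 in undifferentiated cells, 14 to 20 and 11 to 20 for the change to CM, and 11 to 13 and 16 to 21 for fibroblasts. Probes chosen in the ES line ranged over 49 to 70 higher and 6 to 9 lower in iPS EB, and 264 to 266 higher in iPS CM. Those chosen in the iPS line ranged over 23 to 33 and 9 to 16 in ES EB, and 243 to 244 in ES CM. Median scaling moved the median of all probes tested to 0.25 for EB against undifferentiated cells in each line and to 0.11 between the lines in EB. Causes were not tested. With the culture as a random replicate block (consensus correlation 0.0148) 30 and 25 members were called in CM, and with the replicate number as a fixed block 31 and 25. A block moved no count of calls by over 1.5 times and ended no named call but that of Hand2 in EB. Of the alternatives for 61 named probe differences, 814 left the call, or the lack of one, as it was. Another 104 ended a call, 9 added one and 0 reversed the direction of a call. Some of the 61 were not called in the main fit, so no alternative could end them. Median scaling alone ended 21 calls and left 40 differences as they were. Signal near background limits members in EB, where 41 were not detected on any array.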
